A study of Mus musculus with 2 samples.

Results

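The Hand, Twist and partner basic helix-loop-helix (bHLH) genes were compared between anterior and posterior mouse limb bud. The family was represented by 10 genes, Hand1, Hand2, Twist1, Twist2, Tcf21, Scx, Msc, Tcf3, Tcf4 and Tcf12. A gene was measured where the platform annotation gave a probe set exactly its symbol, which held for 9 of the 10 and for 14860 genes in all. Twist2 had no such probe set and was not analysed here. Each of the 9 measured genes had 1 probe set. The tissue came from wild-type CD1 embryos, an outbred mouse stock, at embryonic day 10.5. Limb buds from 8 litters were cut along the midline, the anterior and the posterior portions were pooled separately, and 1 array was hybridised per tissue. The labels do not settle whether an array holds RNA of 1 litter or of all 8. The labels do not say whether forelimb buds, hindlimb buds or both were taken. Neither tissue had a replicate, so no test of a single gene was possible, no p-value is given, and precision is limited throughout by there being 2 arrays.

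bHLH factors bind DNA as dimers at the E-box, CANNTG. The tissue-restricted members, such as Hand2 and Twist1, usually pair with one of the broadly expressed E proteins encoded by Tcf3, Tcf4 and Tcf12, and can also pair with each other. Id proteins lack the DNA-binding basic region and hold E proteins in inactive dimers. In the limb bud Hand2 is known from posterior mesenchyme, where it acts upstream of Shh and opposes Gli3. Twist1 is known from limb mesenchyme, where it is needed for outgrowth and can antagonise Hand2 through dimer choice. The amount of each partner therefore matters to what the others can do.

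Values are expression levels on the log2 scale, computed by the authors with RMA, a method that equalises the brightness of the arrays. Differences are posterior minus anterior, so that a positive value is higher in posterior tissue. A level was called detected above a floor of 5.06, the 95th percentile of 851 olfactory, vomeronasal and taste receptor and beta-defensin genes. The local spread beside a difference is the robust standard deviation of the differences of the 500 genes nearest in level. It stands in for no replicate error. The threshold of 1.3-fold is the submitters' own and equals 0.38 on the log2 scale.

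Hand2 was higher in posterior tissue and Twist1 was higher in anterior tissue, and they were the only members past 1.3-fold as measured. The 3 E protein genes differed by at most 1.11-fold. By tissue, 1 of 9 measured members was past 1.3-fold toward posterior tissue, where 3.77% of all genes were, and 1 toward anterior tissue, where 4.8% of all genes were. Of the 9 members, 6 were detected, namely Hand2, Twist1, Scx, Tcf3, Tcf4 and Tcf12. Among all 9017 detected genes 1.85% passed toward posterior and 4.68% toward anterior tissue. The median difference of the 9 members was -0.14, against -0.04 over all genes. In pooled tissue a lower share of expressing cells and less RNA per cell cannot be told apart, for these genes and for all below.

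**Figure D1:**
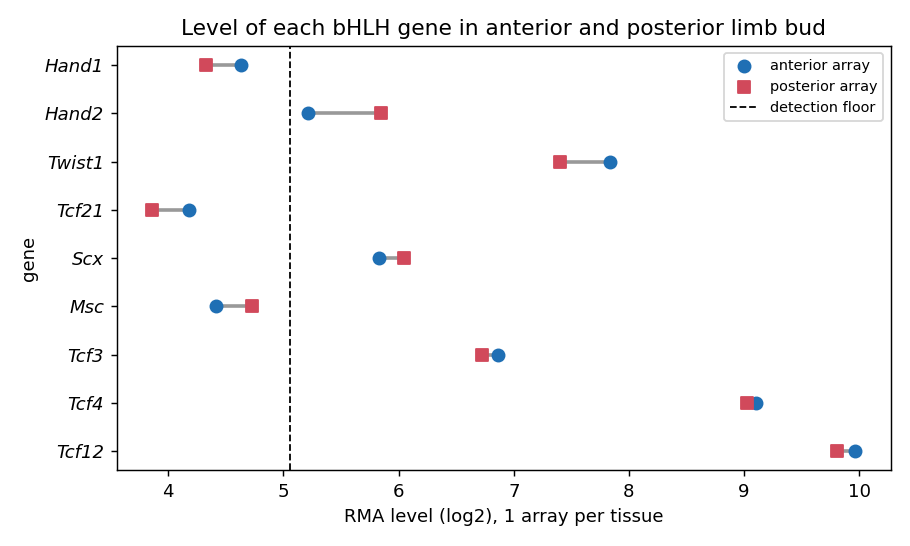
Level of the 9 measured bHLH genes (vertical axis) in the anterior array (circles) and the posterior array (squares), as RMA level on the log2 scale with 1 array per tissue. The dashed line is the detection floor of 5.06. Hand2 moves right from anterior to posterior, Twist1 moves left, and Hand1, Tcf21 and Msc lie under the floor in both arrays. Levels of different genes come from different probes and are not compared.

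Hand2 encodes the posterior bHLH factor that acts upstream of Shh. It read 5.21 in anterior tissue and 5.85 in posterior tissue. Both values lay above the floor, the anterior one by 0.15 and the posterior one by 0.79. The difference of 0.64, or 1.56-fold, was 3.35 times the local spread of 0.19. Hand2 ranked 54th toward posterior tissue among the 9017 detected genes. Of the 500 genes nearest to it in level, 3 differed more toward posterior tissue. The signal was nonetheless close to background. Of the 851 background genes, 33 reached the anterior level of Hand2 and 13 its posterior level. Among the same 851 genes, 68 differed as far toward posterior tissue as Hand2, most of them at lower posterior levels. With the floor at the 99th percentile of those genes, 6.01, Hand2 was not detected in either array, and with an offset of 32 on the linear scale its difference was 0.378, just under the threshold of 0.379.

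Twist1 encodes the mesenchymal bHLH factor of the early limb bud. It read 7.84 in anterior tissue and 7.40 in posterior tissue, well above the floor in both. Of the 851 background genes 0 reached either level, though 89 of them, at lower levels, differed as far toward anterior tissue as Twist1. The difference of -0.44 was a 1.36-fold higher level in anterior tissue, with a local spread of 0.13. Twist1 ranked 271st toward anterior tissue among the detected genes, and 14 of the 500 genes nearest in level differed more in that direction. Genes at this level leaned anterior as a whole, with a median of -0.09 over those 500. After correction for the trend of the difference with level, Twist1 differed by -0.35, or 1.28-fold, and no longer passed 1.3-fold. Hand2 still passed after that correction, at 1.59-fold. The corrected count of members was thus 1 toward posterior tissue, where 3.86% of all genes passed, and 0 toward anterior tissue, where 4.13% did.

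**Figure D2:**
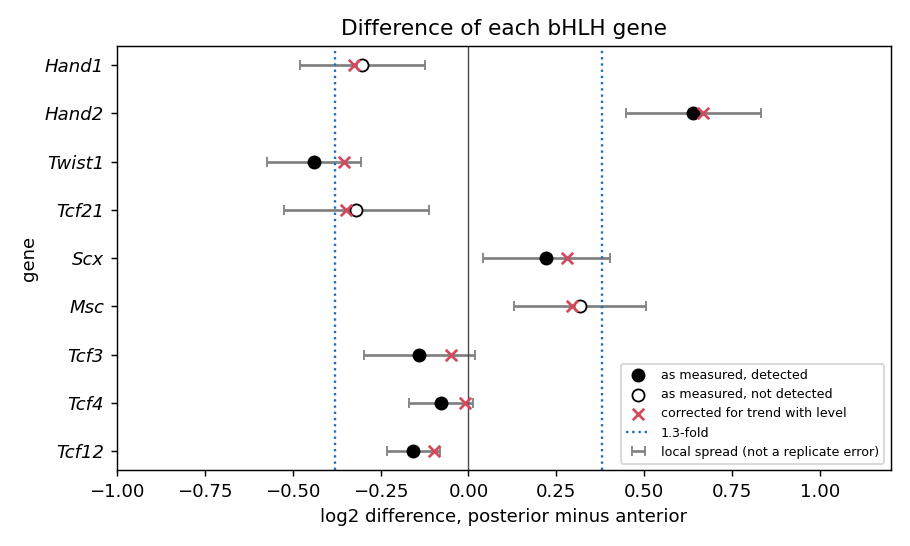
Posterior minus anterior difference (log2, horizontal axis) of each measured bHLH gene, with the local spread as a bar; filled points are detected genes, open points are not, and crosses are values corrected for the trend with level. Dotted lines mark 1.3-fold. Hand2 lies past the line on the posterior side in both forms. Twist1 lies past it on the anterior side as measured and inside it after correction.

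Because Hand2 and Twist1 proteins can pair with the same partners, the change of one transcript relative to another was computed. A ratio of this kind within an array does not depend on the overall brightness of that array. It shows an unequal change of the pair, not which of them changed. Such a ratio follows from the differences of the single genes and adds no measurement. It is a ratio of RNA, and the amounts of protein and of dimers were not measured. Hand2 and Twist1 were the members furthest in opposite directions, so their ratio is the largest between members by that choice. Every ratio with Hand2 also carries its signal close to background. Hand2 relative to Twist1 was 2.11-fold higher in posterior than in anterior tissue, a change of 1.08 in the log2 ratio. After correction for the trend with level it was 2.03-fold. Relative to the E protein genes, Hand2 was higher in posterior tissue by 1.72-fold for Tcf3, 1.64-fold for Tcf4 and 1.74-fold for Tcf12. Twist1 moved less against the same partners: relative to Tcf3, Tcf4 and Tcf12 it was 1.23-fold, 1.28-fold and 1.22-fold higher in anterior tissue. Hand2 relative to Gli3, with which it is known to be mutually antagonistic, was 2.29-fold higher in posterior tissue. Twist1 relative to Gli3 changed by 1.08-fold.

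Upstream sequences are shown for Hand2 and Twist1, the members past 1.3-fold, because both factors act at E-boxes and the genes leaned in opposite directions. The 250 bases before the RefSeq start of each gene are given 5′ to 3′ on the gene's strand, from build GRCm38.p6, with each E-box in capitals. The Hand2 window is chr8:57320733-57320982, plus strand, and the Twist1 window is chr12:33957421-33957670, plus strand.
Hand2: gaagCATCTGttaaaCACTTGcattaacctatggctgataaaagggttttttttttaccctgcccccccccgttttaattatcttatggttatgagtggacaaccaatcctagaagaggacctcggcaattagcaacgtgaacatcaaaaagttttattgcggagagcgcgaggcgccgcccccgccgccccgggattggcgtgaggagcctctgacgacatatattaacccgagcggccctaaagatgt
Twist1: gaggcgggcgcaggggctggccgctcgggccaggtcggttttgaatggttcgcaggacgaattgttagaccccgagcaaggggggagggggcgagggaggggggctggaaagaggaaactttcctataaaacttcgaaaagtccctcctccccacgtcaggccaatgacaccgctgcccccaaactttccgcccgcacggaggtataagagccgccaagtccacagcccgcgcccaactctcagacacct
The motif searched was CANNTG, which reads the same on both strands. The Hand2 window held 2 E-boxes, CATCTG and CACTTG, which begin 246 and 235 bases before the start, and the Twist1 window held 0. At least 1 E-box was in 66.2% of 32851 such windows of mouse genes, and at least 2 were in 31.8%, so neither count sets these windows apart. Windows of 6 of the members were searched, and Hand1, Scx, Msc and Tcf4 were not among them. Tcf3 had 1 E-box, Twist2 and Tcf21 had 0, and the 3 starts of Tcf12 had 1, 1 and 0. A match is only a run of letters, and its absence from so short a window says nothing of the factors.

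Scx encodes scleraxis, the bHLH factor of tendon progenitors. It read 5.83 in anterior tissue and 6.05 in posterior tissue, above the floor in both. The difference of 0.22, or 1.17-fold, was 1.23 times its local spread of 0.18 and under the threshold. It lay at percentile 94.5 of the differences of detected genes, 66.8% of which were lower in posterior tissue. Corrected for the trend with level, Scx differed by 0.28 or 1.21-fold, also under 1.3-fold.

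Hand1, Tcf21 and Msc lay under the floor in both arrays, so their differences are those of signals that cannot be told from background. Hand1, the Hand2 paralogue known from heart and extraembryonic tissue, read 4.63 in anterior and 4.33 in posterior tissue. Tcf21, a factor of epicardial, kidney and lung mesenchyme, read 4.18 and 3.86. Msc, also called MyoR, a repressor found in muscle precursors, read 4.41 and 4.73. Their differences were -0.30, -0.32 and 0.32, each under 1.3-fold and 1.54 to 1.70 times its local spread. Among the 851 background genes, 138 were as far toward anterior tissue as Hand1, 134 as far as Tcf21, and 199 as far toward posterior tissue as Msc.

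The E protein genes were detected in both tissues and each was slightly lower in posterior tissue. Tcf12, which encodes HEB, read 9.97 in anterior and 9.81 in posterior tissue, a difference of -0.16 or 1.11-fold with a local spread of 0.07. Tcf3, which encodes E12 and E47, read 6.86 and 6.72, a difference of -0.14 or 1.10-fold with a local spread of 0.16. Tcf4, which encodes E2-2 and is not the Wnt effector of the same nickname, read 9.10 and 9.02, a difference of -0.08 with a local spread of 0.09. The median detected gene differed by -0.07. After correction for the trend with level the differences were -0.10 for Tcf12, -0.05 for Tcf3 and -0.01 for Tcf4. As measured, the difference of Tcf12 was 2.11 times its local spread, and those of Tcf3 and Tcf4 were within theirs. The 500 genes nearest to Tcf12 in level leaned anterior, with a median of -0.05, and 63 of them differed more in that direction.

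**Figure D3:**
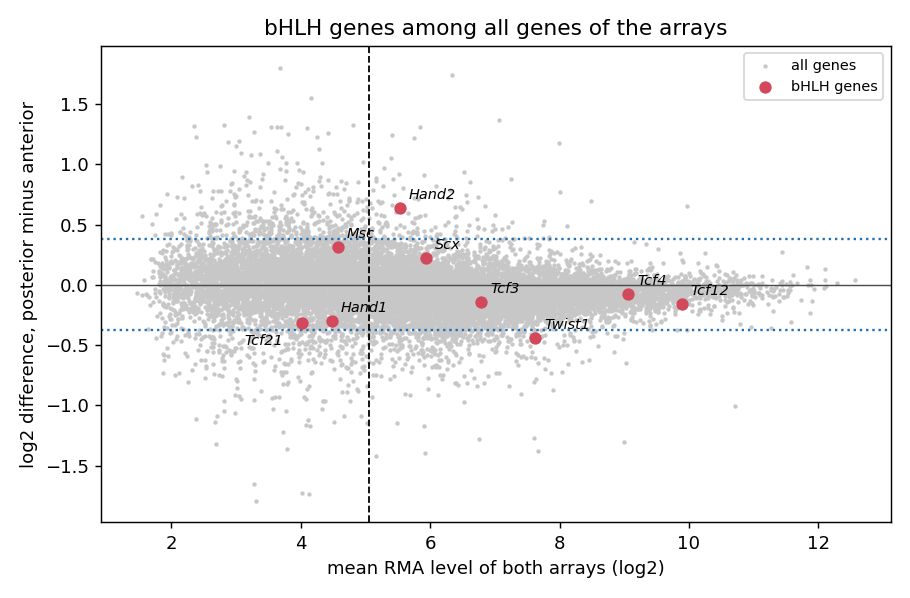
Posterior minus anterior difference (log2) against the mean RMA level of both arrays (log2) for 14860 genes (grey) and the 9 bHLH genes (red, named). Dotted lines mark 1.3-fold and the dashed line the detection floor. Hand2 stands at the upper edge of genes of its level, Twist1 at the lower edge of genes of its level, and the E protein genes lie within the cloud.

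Of the 4 Id genes, whose products bind E proteins and keep them from DNA, Id1 and Id2 were past 1.3-fold toward anterior tissue and Id3 and Id4 were not. All 4 were detected, with a list median of -0.42. Each had a difference below 0, as did 66.8% of all detected genes. Past 1.3-fold toward anterior tissue were 4.68% of all detected genes. Id1 read 6.27 in anterior and 5.74 in posterior tissue, or 1.45-fold, and Id2 read 8.25 and 7.74, or 1.43-fold. Both also passed after correction for the trend with level. Id3 read 6.93 and 6.64, or 1.22-fold, and Id4 read 5.90 and 5.57, or 1.26-fold, and after the correction they differed by 1.15-fold and 1.22-fold. Relative to the E protein genes, Id1 was 1.30-fold to 1.38-fold and Id2 1.28-fold to 1.35-fold higher in anterior tissue. Twist1 relative to Id1 and Id2 changed by 1.07-fold and 1.05-fold. Hand2 relative to Id1 was 2.26-fold higher in posterior tissue.

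The affinity of Hand and Twist proteins for their partners is known to depend on phosphorylation of the first helix by protein kinases A and C, which is reversed by protein phosphatase 2A with its B56 delta subunit. All 7 genes listed for these enzymes were detected and 0 passed 1.3-fold, with a median of -0.05. Enzyme activity and phosphorylation were not measured. The largest differences were in opposite directions. Ppp2r1a, the scaffold subunit of the phosphatase, differed by -0.19, and Ppp2r5d, the B56 delta subunit, by 0.18. Of 9 measured cofactor genes, such as the acetyltransferase gene Ep300 and the ETO family of E protein corepressors, 8 were detected and 0 passed. The detected one furthest from 0 was Lmo4, a LIM-only adaptor, at -0.29. Only 1.85% of all detected genes passed toward posterior and 4.68% toward anterior tissue, so a count of 0 is unremarkable for lists this short.

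**Figure D4:**
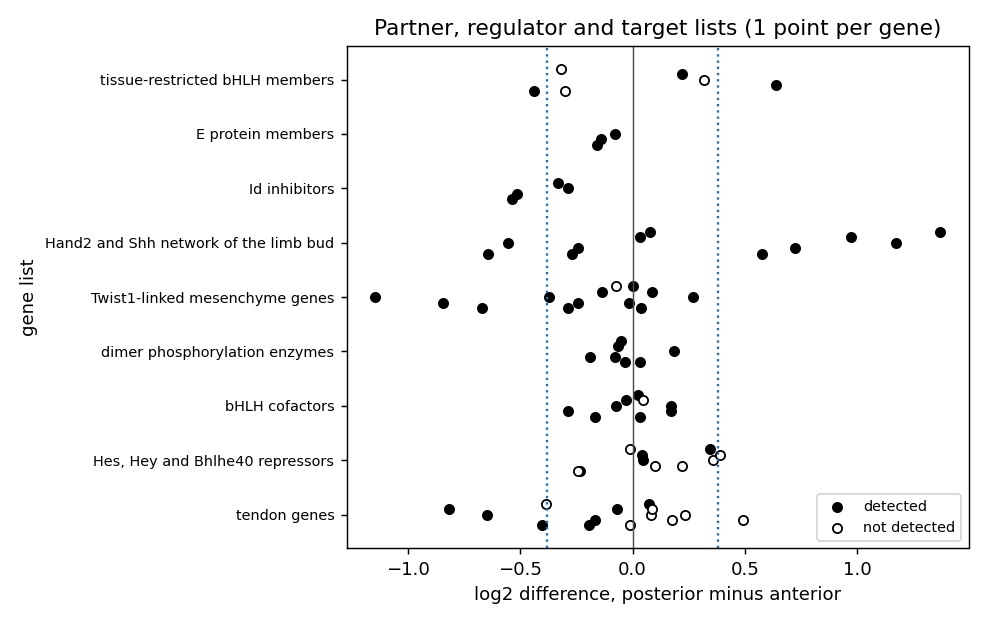
Posterior minus anterior difference (log2) of each measured gene, grouped by list; filled points are detected genes and open points are not, with points spread vertically for legibility. Dotted lines mark 1.3-fold. The 4 Id genes lie left of 0 and 2 of them past the line, the genes of the Hand2 and Shh network lie on both sides, and no enzyme of dimer phosphorylation reaches a line.

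Genes tied to Hand2 in posterior patterning were set beside it. Of 11 measured genes of this network, all were detected, 5 were past 1.3-fold toward posterior and 2 toward anterior tissue, with a median of 0.08. The shares among all detected genes were 1.85% and 4.68%. Hoxd13, the most 5′ gene of the HoxD cluster, read 6.39 in anterior and 7.75 in posterior tissue, or 2.58-fold. Ptch1, the Hedgehog receptor and target, was 2.26-fold higher in posterior tissue. Shh read 5.77 in posterior tissue but stayed below the floor in the anterior array, a bound of at least 1.64-fold. Gli1 and Tbx3, a T-box gene of the posterior margin, complete the 5. Alx4 and Gli3, anterior genes that Hand2 is known to keep out of posterior mesenchyme, exceeded their posterior levels by 1.56-fold and 1.47-fold. Irx3 and Irx5, homeobox genes of anterior and proximal mesenchyme, differed by -0.27 and -0.24, and Grem1, a BMP antagonist, by 0.03.

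Among mesenchymal genes linked to Twist1, 12 of 13 measured genes were detected, 3 were past 1.3-fold toward anterior tissue and 0 toward posterior tissue. The shares among all detected genes were 4.68% and 1.85%. The median of the list was -0.13. Snai2, a zinc-finger repressor of neural crest and mesenchyme, read 7.69 in anterior and 7.02 in posterior tissue, or 1.59-fold. Msx1 was 1.79-fold higher in anterior tissue, and Msx2, under the floor in posterior tissue, at least 1.45-fold. Etv4 and Etv5, which with Twist1 are known to keep Shh out of anterior mesenchyme, differed by -0.24 and -0.37, under the threshold. Fgf10 and Fgfr2, an FGF ligand and receptor of limb outgrowth, differed by 0.09 and 0.04.

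Tendon genes, set beside Scx, showed no posterior difference past 1.3-fold among the 7 detected of 14 measured. In anterior tissue 3 were higher by that much, as were 4.68% of all detected genes. Tgfb2, a TGF-beta ligand that acts upstream of Scx in tendon progenitors, was 1.76-fold higher, Col1a2, a type I collagen chain, 1.57-fold, and Bgn, the proteoglycan biglycan, 1.32-fold. Bgn fell under 1.3-fold after correction for the trend with level. The later tendon gene Tnmd was not detected, nor were Thbs4, Tnc, Dcn, Egr1, Egr2 and Six2. The counts thus describe collagen, biglycan and TGF-beta genes alone, and the rest of the list cannot be read.

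Other bHLH subfamilies were mostly below detection. Of a mixed list of 13 further bHLH genes, not all of them mesodermal, 4 were detected and 0 of these passed 1.3-fold. Atoh8 differed most among the detected ones, by -0.31. Of 4 myogenic genes only Myod1 was detected, at 4.70 in anterior and 5.10 in posterior tissue, a bound of only 1.03-fold. Of 10 measured Hes, Hey and Bhlhe40 repressors 4 were detected, 0 of which passed. With 1.85% of all detected genes past it toward posterior and 4.68% toward anterior tissue, counts of 0 are unremarkable here. Hes5, a Notch target, was 1.27-fold higher in posterior tissue, and 1.34-fold after correction for the trend with level.

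The detected genes whose difference was nearest to that of Hand2 were Lhb, Dimt1 and Cntfr, within 0.0102 of it on the log2 scale by their measured values. Lhb was under the floor in anterior tissue, which leaves it only a bound of at least 1.29-fold. Those nearest to Twist1 were Ttc28, Ccn1 and Chac2, within 0.00147. Likeness here is the closeness of 1 difference over 2 arrays, so it orders genes by size alone.

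Marker genes of limb mesenchyme were read in both arrays. Their detection bears on limb tissue, not on which portion an array holds. All 8 limb mesenchyme markers, a list that holds Twist1 itself, were detected in both tissues, with a median difference of -0.35. As measured, 4 were past 1.3-fold toward anterior tissue, namely Twist1, Lhx9 at 2.47-fold, Prrx2 at 1.74-fold and Lhx2 at 1.72-fold. The share among all detected genes was 4.68%. Corrected for the trend with level, 3 passed toward anterior tissue, without Twist1, and 1 toward posterior tissue, Tbx4. Tbx4, known from hindlimb, differed by 0.375 as measured, just under the threshold, and the forelimb gene Tbx5 by -0.18.

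Body wall and somite markers bear on Hand genes, since these are also known from the flank. Of 13 such markers 11 were detected, 7 of them lower and 4 higher in posterior tissue, with a median of -0.10. Meox2 was 1.41-fold higher in posterior tissue, and Foxc2 at least 1.39-fold and Pax1 1.32-fold higher in anterior tissue. With the trend removed Pax1 was at 1.29-fold. The summed linear level of all 13, detected or not, was 725 in the anterior and 760 in the posterior array. It was 544 and 505 without Meox2, so that the direction of the sum rests on that gene.

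Markers of other cell types were summed in the same way, over all measured genes, with those under the floor included. Such a sum is weighted toward genes with bright probes. The muscle progenitor list, with 3 of 5 genes detected, summed to 365 in anterior and 395 in posterior tissue, and Eya1 differed most among the detected genes, by 0.28. The ectoderm list, with 8 of 9 detected, summed to 917 and 970, and to 792 and 797 without Krt5, a keratin gene that was 1.40-fold higher in posterior tissue. The endothelial list, with 8 of 8 detected, summed to 910 and 885. Plvap, an endothelial gene under the floor in the posterior array, had a bound of only 1.03-fold toward anterior tissue. The red blood cell list, with 4 of 5 detected, summed to 6628 and 6688, and Gata1 differed most among the detected genes, by 0.22. The macrophage list, with 4 of 9 detected, summed to 350 and 283, and to 266 and 237 without Tyrobp, a signalling adaptor that was 1.82-fold higher in anterior tissue. The neural list, with 5 of 6 detected, summed to 387 and 320, but to 188 and 209 without Dcx, and its median was 0.08. The part of these cell types in the Hand2 and Twist1 differences was not tested.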

How the data were processed

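RNA of anterior and of posterior limb bud was measured on 1 Affymetrix array each. The authors deposited log2 RMA levels made with Expression Console (core genes), per the labels. Build mm9 is named in the submitters' processing notes; a software version was not given in the sources used here. The table held 23332 probe sets, 14996 with 1 gene symbol, 1019 with several and 7317 unnamed here. Probe sets of a symbol were averaged; 0 several-symbol probe sets listed a member. Gene identifiers of all 9 member probe sets gave the same symbol in a RefSeq gene table of GRCm38.p6, which with its promoter table supplied names and sequences alone. There were 0 other columns of per-sample values. The trend with level was a lowess curve (fraction 0.3). It and the local spread (1.4826 times the median absolute deviation) were tested on simulated data. The differences planted there were larger than that of any member, so the test does not bear on differences of the members' size. Python 3.11.15, pandas 2.3.3, numpy 2.4.6 and statsmodels 0.14.6 were used. The rule named all members, up to 3 detected genes per list and direction past 1.3-fold or else the detected gene furthest from 0, and 3 genes nearest in difference to each member past 1.3-fold; further names were picked with their values in view. The members and the 20 lists were chosen with earlier results of these data known. The alternatives were median-centred arrays, the trend correction, the brightest probe set, offsets of 16 and 32 on the linear scale, a floor at the 99th percentile, detected members only, thresholds of 1.2-fold and 1.5-fold, and the addition of several-symbol probe sets.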

Additional observations from a re-analysis of the deposited data

How the results depend on the processing

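With 1 array per tissue no result has a replicate, and the signal of Hand2 is close to background. Hand2 kept its posterior direction and Twist1 its anterior direction under every alternative run on their differences. Most of these could not have changed it. An offset cannot reverse the sign of a difference, and the probe set choices left the members' values as they were. The number of members past 1.3-fold toward posterior tissue was 1 as reported. It was 0 with an offset of 32 and 0 among members above the floor at the 99th percentile, and 2 at a threshold of 1.2-fold. The number toward anterior tissue, also 1, was 0 after the trend correction, 0 with an offset of 32, 0 at a threshold of 1.5-fold and 3 at 1.2-fold. The members added at 1.2-fold, Msc, Hand1 and Tcf21, were not detected; among detected members the counts at 1.2-fold, set after seeing the data, were 1 and 1. With an offset of 32 the difference of Hand2 was 0.378, and that of Tcf21 was -0.11; an offset draws low values together by construction. The median of the members ranged from -0.05 after the trend correction to -0.14. Of 195 values for the listed genes (differences) and lists (counts), some moved by more than the local spread of the gene or by more than 1.5 times the count: 3 with median-centred arrays, 3 with the trend correction, 18 with an offset of 16 and 38 with an offset of 32. The brightest probe set and the added probe sets left every member's value as it was, since each member has 1 probe set. No paired analysis was possible because each tissue has 1 array.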

Other observations

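Neurogenic bHLH genes were mostly below detection, with 5 of 12 measured genes above the floor. Atoh7, known as a determinant of retinal ganglion cells, read 6.34 in anterior and 5.78 in posterior tissue, a difference of -0.56 with a local spread of 0.18. Neurog3, known from endocrine pancreas, was under the floor in anterior tissue at 4.52 and read 5.24 in posterior tissue, a bound of only 1.13-fold. Olig1 differed by 0.32 toward posterior tissue. Of the neural markers measured, Dcx, a microtubule protein of migrating neurons, was 1.79-fold higher in anterior tissue, and Nefm, a neurofilament subunit, 1.47-fold higher in posterior tissue.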
